A study of Saccharomyces cerevisiae EC1118 with 12 samples.

Results

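The genes described are 5 yeast genes for enzymes that pass electrons to fumarate, or from protein thiols to oxygen. They were chosen by function, from the gene symbols of the array annotation. They are the fumarate reductase genes FRD1 (YEL047C) and OSM1 (YJR051W), the sulfhydryl oxidase genes ERO1 (YML130C) and ERV2 (YPR037C), and URA1 (YKL216W), the gene for dihydroorotate dehydrogenase. Each was represented by 1 probe set, and all 5 of 5 were among the 5449 genes tested. All 5 had mean levels above the lowest 25% of genes, which are called dim below. A further sulfhydryl oxidase gene, ERV1, which acts in mitochondria, is described with its pathway.

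Cells growing without oxygen cannot respire, and reactions that normally give electrons to oxygen need another acceptor. Fumarate reductases use reduced flavin to turn fumarate into succinate, and the yeast enzymes are soluble flavoproteins, with Frd1 in the cytosol and Osm1 in mitochondria and the endoplasmic reticulum (ER). Yeast that lacks both enzymes does not grow anaerobically. In the ER, Ero1 reoxidises the disulfide isomerase Pdi1 and normally hands the electrons to oxygen, and Erv2 is a smaller flavin oxidase of the same compartment. Ura1 oxidises dihydroorotate on the way to pyrimidine nucleotides. In Saccharomyces cerevisiae it is a cytosolic enzyme that uses fumarate, so the pathway can run without oxygen.

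The samples were total RNA from EC1118, a commercial wine yeast, kept at steady state in chemostats on MS300 synthetic must altered to make nitrogen limiting. The pH was 3.5, with 0.1 volumes of medium exchanged per hour. The 12 arrays fall into 4 groups of 3, which differ in the gas sparged through the culture: nitrogen alone, or mixtures with 1%, 5% or 20% oxygen. Dissolved oxygen is given in conflicting ways, as 0, 1.2, 2.7 and 5 micromolar in the titles and as 0, 0.8, 4 and 11 micromolar in the condition text, so the groups are named by their gas. No genotype change was labelled, and whether a group's 3 arrays trace to different chemostats is unlabelled, so a p-value reflects array-to-array spread, which may be technical. In whole-culture RNA, fewer cells of a type and less RNA per cell cannot be told apart.

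Levels are the deposited log2 values, on which a difference of 1 is a 2-fold change. Differences are log2 ± the standard error from a limma model of all 12 arrays, and a gene was called at a Benjamini-Hochberg adjusted p under 0.05 over all 5449 genes. At this threshold 16.4% of all genes were called at 1% oxygen (11.2% lower), 16.3% at 5% (11% lower), 7.91% at 20% (4.64% lower) and 23.1% for the mean of the 3 oxygen levels (13.8% lower), each against the anaerobic group. Called higher were 287 of the 5449 genes at 1% oxygen, 290 at 5%, 178 at 20% and 508 for the mean of the levels. These shares and counts depended on single arrays. Without anaerobic array 2 the count of genes called fell from 895 to 36 at 1% oxygen, from 889 to 400 at 5%, from 431 to 153 at 20% and from 1260 to 481 for the mean, and without anaerobic array 3 it was 172, 483, 156 and 629. Without 1% oxygen array 3 it was 322 at 1% and 758 at 20%. Without anaerobic array 1 it was 443 at 1% and 780 for the mean, without 5% oxygen array 1 or 2 it was 457 or 410 at 5%, and without 20% oxygen array 2 it was 181 at 20%. Arrays correlated with the mean of their group partners at 0.94 to 0.992, lowest for 1% oxygen array 3. Of 6 marker genes of anaerobic growth, 1, 5 and 6 were called lower at 1%, 5% and 20% oxygen. Their median differences were -0.95, -2.58 and -3.73. HEM13 (heme synthesis), the gene called at 1%, was lower by -2.52 ± 0.41 there and by -4.63 ± 0.41 at 20%. Anaerobic array 1 was set apart in an earlier analysis of these data by other gene lists, not by its group correlation of 0.977, which 3 oxygenated arrays besides 1% array 3 did not reach. Results for FRD1 are also given without it and 1% oxygen array 3. All 8 haploid mating genes, markers of another cell type, were dim. At 1%, 5% and 20% oxygen 1, 3 and 2 of them were called higher, beside 287, 290 and 178 of all 5449 genes. MF(ALPHA)1, for a mating pheromone, had the largest rises of them among those called, by 2.34 ± 0.46 at 5% and 3.95 ± 0.46 at 20%, with mean levels of 3.61 anaerobic and 7.57 at 20%. The median of these 8 genes lay between 3.21 and 3.97 on the anaerobic arrays and between 4.27 and 4.36 on the 20% arrays, and its part in the results was not tested.

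The question asked of each gene was whether its transcript differed between anaerobic and oxygenated cultures and between oxygen levels. FRD1 was lower in every oxygenated group, by 2.29-fold at 1%, 2.77-fold at 5% and 3.20-fold at 20% oxygen. OSM1, ERO1, ERV2 and URA1 were not called in any comparison. FRD1 was thus 1 of 5 genes called lower at each level, beside background shares of 11.2%, 11% and 4.64% of all genes that themselves moved with single arrays, and nothing particular to the 5 genes as a set is read from that count.

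FRD1, the cytosolic fumarate reductase gene, had levels of 9.24, 9.10 and 9.19 on anaerobic arrays 1, 2 and 3. At 1% oxygen the values were 8.22, 8.20 and 7.52. At 5% they were 8.06, 7.46 and 7.60, and at 20% they were 7.81, 7.10 and 7.59. Every anaerobic array therefore lay above every oxygenated array, with the lowest anaerobic value at 9.10 and the highest oxygenated value at 8.22. Over all genes, 11.5% lay lower on all 9 oxygenated arrays than on the 3 anaerobic ones, and 24.6%, 22.2% and 15.9% did so at 1%, 5% and 20% oxygen alone.

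The FRD1 difference from the anaerobic group was -1.19 ± 0.25 at 1% oxygen (adjusted p = 0.0168 from limma, 95% confidence interval -1.75 to -0.64). It was -1.47 ± 0.25 at 5% (adjusted p = 0.00389, interval -2.02 to -0.92) and -1.68 ± 0.25 at 20% (adjusted p = 0.00302, interval -2.23 to -1.12). These 3 comparisons share the anaerobic arrays. The mean of the 3 oxygen levels lay below the anaerobic group by -1.45 ± 0.21 (adjusted p = 0.00116), and the moderated F test over the 4 groups gave an adjusted p = 0.00718, where 10.1% of all genes were called. By p-value FRD1 ranked 45 among 5449 genes at 20% oxygen and 164 at 1%.

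The order of the FRD1 group means was anaerobic (9.18 ± 0.07, SD, n = 3), 1% (7.98 ± 0.40), 5% (7.71 ± 0.32) and 20% (7.50 ± 0.36). Each oxygenated group was called lower than the anaerobic one. No difference between neighbouring oxygenated groups was called, and 20% against 1% oxygen was not compared. From 1% to 5% oxygen the difference was -0.28 ± 0.25 (adjusted p = 0.898, interval -0.83 to 0.28), and from 5% to 20% it was -0.21 ± 0.25 (adjusted p = 0.999, interval -0.76 to 0.35). In these steps limma called 0 of 5449 genes (0%), with 265 and 149 genes at an unadjusted p under 0.05.

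The call of FRD1 at 1% oxygen depended on single arrays. It ended without anaerobic array 2 (-1.23, adjusted p = 0.0683), without anaerobic array 3 (-1.19, adjusted p = 0.0541), and without 1% oxygen array 3 and anaerobic array 1 together (-0.93, adjusted p = 0.0844). The 5% and 20% calls and that for the mean of the oxygen levels were kept under every alternative run. Without the same pair of arrays these differences were -1.44, -1.64 and -1.34. The F test call ended without anaerobic array 3 (adjusted p = 0.0526).

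**Figure D1:**
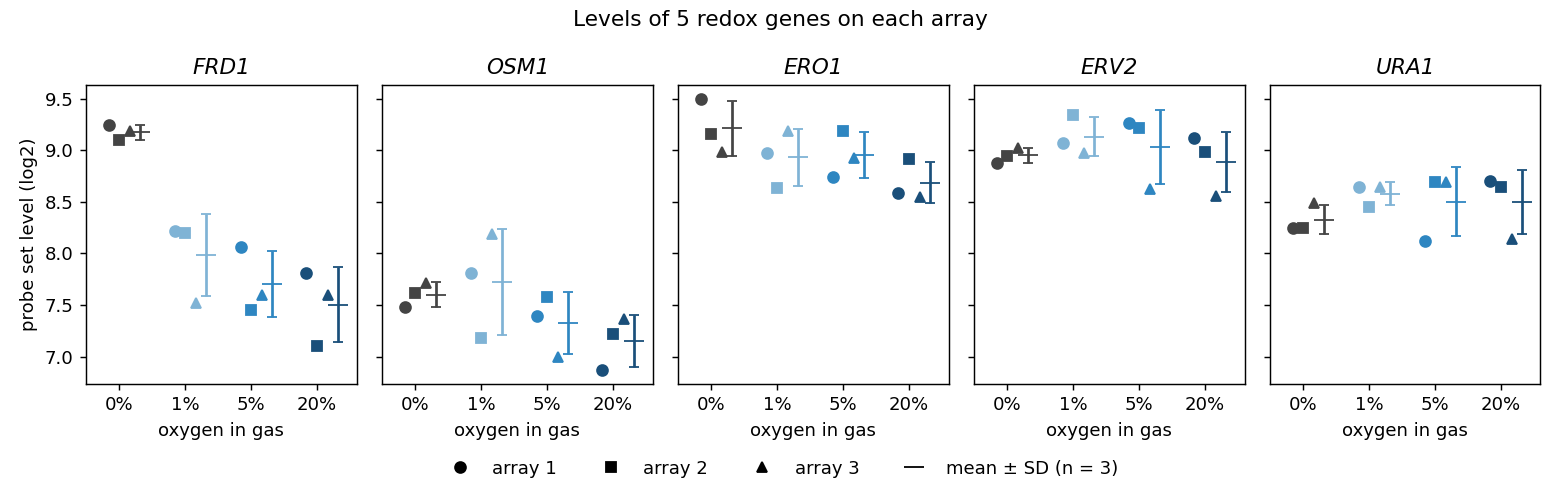
Levels of FRD1, OSM1, ERO1, ERV2 and URA1 (log2, y axis) on each array by oxygen in the sparging gas (x axis, 0% is anaerobic); points are arrays, marked by replicate number, and bars are mean ± SD of 3 arrays. FRD1 lies between 9.10 and 9.24 on the anaerobic arrays and at or below 8.22 on all oxygenated ones, while the other genes show overlapping groups, apart from OSM1 and ERO1 at 20% against anaerobic. Heights are not comparable between genes.

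OSM1, whose product is the organellar fumarate reductase, read 7.48, 7.61 and 7.72 on the anaerobic arrays. The 1% oxygen arrays, at 7.81, 7.18 and 8.18, spread on both sides of them. The 5% arrays were at 7.40, 7.58 and 6.99, and the 20% arrays at 6.87, 7.22 and 7.37. Only at 20% oxygen did the OSM1 values not overlap the anaerobic ones, as was so in the lower direction for 15.9% of all genes.

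No OSM1 difference from the anaerobic group was called. It was 0.12 ± 0.26 at 1% oxygen (adjusted p = 0.769), -0.28 ± 0.26 at 5% (adjusted p = 0.499) and -0.45 ± 0.26 at 20% (adjusted p = 0.316). At 20% the 95% confidence interval ran from -1.02 to 0.12. That interval includes a 2-fold fall. In order, the OSM1 means were 7.72 ± 0.51 at 1%, 7.60 ± 0.12 anaerobic, 7.32 ± 0.30 at 5% and 7.15 ± 0.26 at 20%, and no neighbours in that order were called different where the step was tested.

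Whether the paralogous reductase genes changed unequally was tested on the log2 difference FRD1 minus OSM1 within each array. This difference was 1.77, 1.49 and 1.47 on the anaerobic arrays. It was 0.41, 1.03 and -0.66 at 1% oxygen, 0.67, -0.12 and 0.61 at 5%, and 0.94, -0.12 and 0.23 at 20%. All 3 anaerobic values were above all 9 oxygenated ones.

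The mean difference between FRD1 and OSM1 was 1.58 ± 0.17 (SD, n = 3) on the anaerobic arrays and 0.33 ± 0.55 (SD, n = 9) on the oxygenated arrays, a change of -1.24. An exact two-sided permutation test gave p = 0.00909, where 220 arrangements allow p = 0.00455 at the least, and p = 0.0182 after Benjamini-Hochberg adjustment over the 2 such differences tested. FRD1 thus fell relative to OSM1, which was not itself called in any comparison. The test takes the 9 oxygenated arrays, of 3 oxygen levels, as a single group. The lowest value, -0.66, came from 1% oxygen array 3, the array that stood apart. Without that array and anaerobic array 1 the change was -1.02 (exact p = 0.0222).

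**Figure D2:**
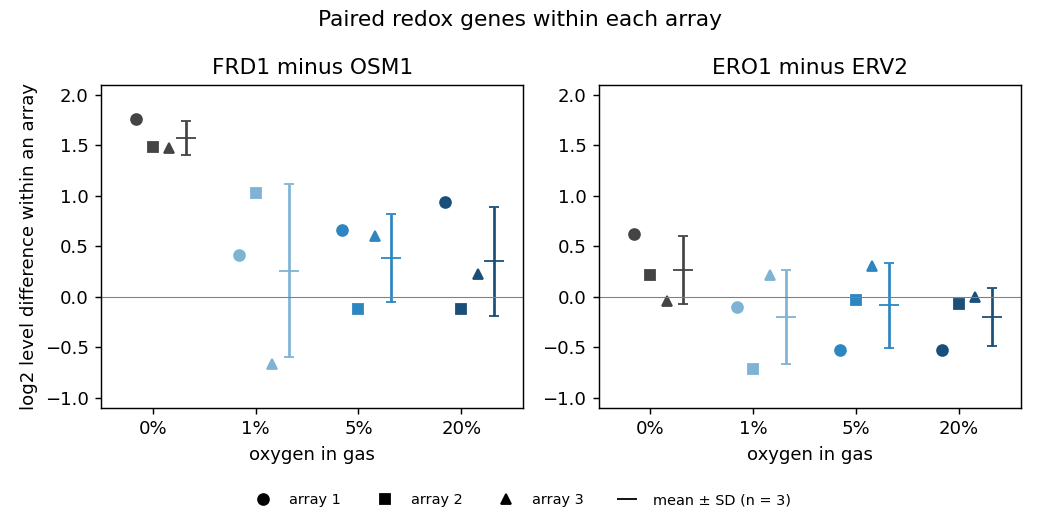
Log2 level difference within each array (y axis) for FRD1 minus OSM1 and for ERO1 minus ERV2, by oxygen in the gas (x axis, 0% is anaerobic); points are arrays and bars are mean ± SD of 3 arrays. The 3 anaerobic FRD1 minus OSM1 values, from 1.47 to 1.77, lie above all 9 oxygenated values, and the ERO1 minus ERV2 groups overlap. Only changes of each difference between groups are interpretable, since probe sets hybridise unequally.

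ERO1 encodes the oxidase that renews oxidised Pdi1 in the ER. Its levels were 9.50, 9.16 and 8.98 on the anaerobic arrays, and the highest of them came from anaerobic array 1. They were 8.97, 8.63 and 9.19 at 1% oxygen, 8.74, 9.18 and 8.93 at 5%, and 8.59, 8.91 and 8.55 at 20%. All 20% arrays were below all anaerobic arrays, as was so for 15.9% of all genes. The other oxygenated groups overlapped the anaerobic one.

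ERO1 differed from the anaerobic group by -0.28 ± 0.22 at 1% oxygen (adjusted p = 0.367), by -0.26 ± 0.22 at 5% (adjusted p = 0.439) and by -0.53 ± 0.22 at 20% (adjusted p = 0.150). The unadjusted p at 20% was 0.0309, and the difference did not pass the adjustment over all genes. Without anaerobic array 1 the ERO1 differences were -0.14, -0.12 and -0.39 at 1%, 5% and 20% oxygen. ERO1 means ran from 9.21 ± 0.27 anaerobic through 8.95 ± 0.22 at 5% and 8.93 ± 0.28 at 1% to 8.68 ± 0.20 at 20%.

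ERV2, the smaller ER oxidase gene, was at 8.88, 8.95 and 9.02 on the anaerobic arrays. At 1% oxygen it was at 9.08, 9.34 and 8.97, at 5% at 9.27, 9.21 and 8.62, and at 20% at 9.12, 8.98 and 8.55. Each oxygenated group overlapped the anaerobic group. The differences were 0.18 ± 0.22, 0.08 ± 0.22 and -0.07 ± 0.22 at 1%, 5% and 20% oxygen (adjusted p from 0.581 to 0.896). The intervals reached from -0.55 at the lowest to 0.67 at the highest, so changes of 2-fold lay outside them. ERV2 means ran from 9.13 ± 0.19 at 1% through 9.03 ± 0.36 at 5% and 8.95 ± 0.07 anaerobic to 8.88 ± 0.29 at 20%.

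ERO1 minus ERV2 within an array had a mean of 0.26 ± 0.34 (SD, n = 3) on the anaerobic arrays and -0.16 ± 0.35 (SD, n = 9) on the oxygenated arrays. The change of -0.43 was within the spread (exact two-sided permutation p = 0.118, and 0.118 adjusted over the 2 differences). Without anaerobic array 1 it was -0.25 (exact p = 0.382). Unequal change of the ER oxidase genes was not detectable with these arrays.

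URA1, the dihydroorotate dehydrogenase gene, read 8.24, 8.25 and 8.49 on the anaerobic arrays. It read 8.65, 8.45 and 8.64 at 1% oxygen, 8.12, 8.69 and 8.69 at 5%, and 8.71, 8.64 and 8.14 at 20%. The groups overlapped in each comparison, and a single array in each of the 5% and 20% groups lay below all anaerobic arrays. URA1 differed from the anaerobic group by 0.25 ± 0.22 at 1%, 0.17 ± 0.22 at 5% and 0.17 ± 0.22 at 20% oxygen (adjusted p from 0.427 to 0.704). Its intervals lay between -0.31 and 0.73. Of the 5 genes URA1 had the smallest range over the 12 arrays, 0.59, against 2.14 for FRD1, and its means ran from 8.58 ± 0.11 at 1% through 8.50 ± 0.33 at 5% and 8.50 ± 0.31 at 20% to 8.33 ± 0.14 anaerobic.

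**Figure D3:**
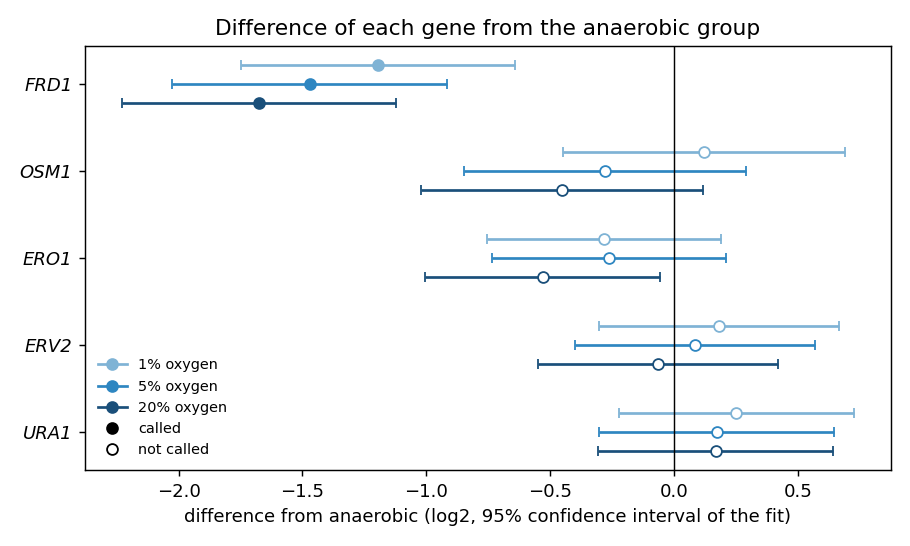
Difference of each oxygen level from the anaerobic group (log2, x axis) for the 5 genes, with 95% confidence intervals of the limma fit; filled points were called at adjusted p under 0.05 and open points were not. The FRD1 points lie at -1.19, -1.47 and -1.68, and all points of the other genes lie between -0.53 and 0.25.

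The genes around these enzymes were read from lists chosen by pathway. The comparison was the mean of the 3 oxygen levels against the anaerobic group, where the median of all genes was 0.05. In it 23.1% of all genes were called, 13.8% lower, with 508 of the 5449 genes called higher. Whether the count in any list differed from these shares was not tested. On the reductive route from pyruvate to fumarate, 1 of 6 genes was called. This was PYC1, a pyruvate carboxylase gene whose enzyme makes oxaloacetate. It was lower by -1.34 ± 0.23 (adjusted p = 0.00258). Its anaerobic levels, from 9.58 to 10.4, lay above its oxygenated levels, from 8.02 to 9.25, as was so for 11.5% of all genes. The median of the 6 genes was 0.05, and PYC1 was also the 1 gene called at each single oxygen level. The PYC1 call at 5% was kept under every alternative. That at 1% ended without anaerobic array 2, and without 1% oxygen array 3 and anaerobic array 1 together (adjusted p up to 0.0865). That at 20% ended without anaerobic array 2 or 3, 5% oxygen array 1 or 2, or 20% oxygen array 1 or 2. It also ended when only the groups compared were fitted (adjusted p up to 0.154 over the alternatives). FUM1, the fumarase gene, differed by 0.28 ± 0.20 (adjusted p = 0.330).

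Of the 2 other enzymes that release fumarate, ARG4, for argininosuccinate lyase, was higher (0.73 ± 0.21, adjusted p = 0.0247). Of 8 genes of the oxidative branch to succinate and fumarate, LSC1, for a succinyl-CoA ligase subunit, was higher (0.50 ± 0.16) and SDH1, for the flavoprotein of succinate dehydrogenase, was lower (-0.59 ± 0.19), with a median of 0.26. Of 6 carrier and transaminase genes, OAC1, for the mitochondrial oxaloacetate carrier, was higher (0.63 ± 0.20), and the median was 0.16. Levels of each of the 4 genes overlapped between oxygenated and anaerobic arrays. At single oxygen levels only SDH1 at 1% (-0.87 ± 0.23, adjusted p = 0.0277) and ARG4 at 20% (1.02 ± 0.25, adjusted p = 0.0295) were called. Both of those calls ended without anaerobic array 1 or 2. SDH1 was not called at 5% (-0.65, adjusted p = 0.0691) or 20% (-0.23, adjusted p = 0.591). The 4 calls for the mean of the oxygen levels depended on single arrays. Each ended without anaerobic array 1 or anaerobic array 2, and those of ARG4, LSC1 and OAC1 also without anaerobic array 3. The calls of SDH1, LSC1 and OAC1 also ended without 1% oxygen array 1, 5% oxygen array 2 or 20% oxygen array 2, those of LSC1 and OAC1 without 5% oxygen array 1, that of LSC1 without 20% oxygen array 3, and that of OAC1 without 20% oxygen array 1 or with quantile scaling. Under the alternatives the adjusted p reached 0.111 for ARG4, 0.236 for SDH1, 0.221 for LSC1 and 0.181 for OAC1.

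In the ER, 2 of 5 disulfide isomerase genes fell, PDI1 and EUG1, beside 13.8% of all genes called lower. The median of the list was -0.07. The same count of 2 lower and 0 higher held at each oxygen level. PDI1, the main isomerase and the substrate of Ero1, had levels of 11.74, 11.76 and 11.72 on the anaerobic arrays. They were 10.98, 10.50 and 9.74 at 1% oxygen, 8.97, 9.53 and 10.31 at 5%, and 9.94, 9.92 and 10.04 at 20%. All oxygenated arrays were below all anaerobic ones, as was so for 11.5% of all genes.

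PDI1 differed by -2.14 ± 0.34 at 5% oxygen (adjusted p = 0.00284) and by -1.77 ± 0.34 at 20% (adjusted p = 0.00948), and both calls were kept under every alternative. At 1% oxygen its difference was -1.33 ± 0.34 (adjusted p = 0.0258), and that call was lost on leaving out any single anaerobic array or 1% oxygen array 3 (adjusted p up to 0.128 over the alternatives). EUG1, a paralog of PDI1, differed by -1.09 ± 0.22 at 5% (adjusted p = 0.00769) and by -1.68 ± 0.22 at 20% (adjusted p = 0.00122), again under every alternative, while its call at 1% (-0.73 ± 0.22, adjusted p = 0.0449) was lost under several (adjusted p up to 0.191). Whether PDI1 changed unequally to ERO1 was not tested.

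Of 12 ER chaperone and unfolded protein response genes, 4 were lower for the mean of the oxygen levels and none was higher, with a median of -0.36. Of all genes, 13.8% were called lower there. JEM1 and SCJ1, for J-domain partners of the ER chaperone Kar2, differed by -1.62 ± 0.31 (adjusted p = 0.0044) and -1.48 ± 0.27 (adjusted p = 0.00336), and JEM1 was dim. The others were KAR2 (-0.97 ± 0.17, adjusted p = 0.00308) and LHS1 (-0.83 ± 0.20, adjusted p = 0.0123), for Hsp70-type chaperones. KAR2 and LHS1 fall outside the naming rule and were named after their values were seen. The calls of JEM1, SCJ1 and KAR2 were kept under every alternative, and that of LHS1 ended without anaerobic array 2 or 3 (adjusted p up to 0.0832). At 5% and 20% oxygen the same 4 genes were lower. At 1% oxygen JEM1, SCJ1, KAR2 and CNE1, for the chaperone calnexin, were lower, and LHS1 was not called (-0.44, adjusted p = 0.219). CNE1 was dim, with levels from 5.68 to 6.15 on the anaerobic arrays and from 4.89 to 5.35 at 1% oxygen. It was also named after its values were seen, and its call was not followed through the alternatives. The 1% calls of JEM1, SCJ1 and KAR2 ended without anaerobic array 2 or 3, those of JEM1 and KAR2 also without 1% oxygen array 3, and that of KAR2 also on leaving out anaerobic array 1 or either of 5% oxygen arrays 1 and 2. Their adjusted p reached 0.0971, 0.0912 and 0.194 under the alternatives. At 20% oxygen each of the 4 calls ended without 20% oxygen array 2, those of JEM1, SCJ1 and LHS1 also without anaerobic array 2 or 3, and those of JEM1 and SCJ1 without 20% oxygen array 3. At 5% oxygen LHS1 lost its call on leaving out anaerobic array 2, anaerobic array 3 or the 5% array 3, and the other 3 were kept under every alternative.

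In the mitochondrial intermembrane space, Mia40 oxidises imported proteins and Erv1 reoxidises Mia40. Of 11 genes of this relay and its substrates, 2 were lower for the mean of the oxygen levels, and the median was 0.15. MIA40 had levels from 8.93 to 9.12 on the anaerobic arrays. On the oxygenated ones it lay from 7.50 to 8.58, lower without overlap, as was so for 11.5% of all genes. It differed by -0.92 ± 0.24 (adjusted p = 0.0174), and no gene of the relay was called at 5% or 20% oxygen. The MIA40 call ended on leaving out any single anaerobic array (adjusted p up to 0.0767). COX19, for an assembly factor of cytochrome c oxidase, was dim and differed by -0.70 ± 0.21 (adjusted p = 0.0301). That call ended with quantile scaling, on leaving out any single anaerobic array and without 5% oxygen array 2 (adjusted p up to 0.165 over the alternatives).

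ERV1, the remaining sulfhydryl oxidase gene, had levels from 7.27 to 7.66 on the anaerobic arrays. It lay between 7.71 and 8.23 at 1% oxygen, between 7.65 and 7.90 at 5% and between 6.81 and 7.76 at 20%. The 1% arrays were above all anaerobic arrays, as was so for 19.9% of all genes, and the other groups overlapped with them. ERV1 was not called at 1% (0.47 ± 0.25, adjusted p = 0.199), at 5% (0.29 ± 0.25, adjusted p = 0.460) or at 20% (-0.08 ± 0.25, adjusted p = 0.889).

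Among 10 other genes of pyrimidine synthesis, 1 was called for the mean of the oxygen levels, and the median was -0.09. At 1%, 5% and 20% oxygen 2, 1 and 0 of them were lower and 0 were higher. URA8, a CTP synthase gene, was lower (-0.79 ± 0.22, adjusted p = 0.0237), and its call ended on leaving out any single anaerobic array (adjusted p up to 0.0984). URA3, for the decarboxylase that completes UMP, differed by -0.27 ± 0.22 (adjusted p = 0.399), and PPR1, whose product activates URA1 and URA3 transcription, was dim and differed by -0.12 ± 0.20 (adjusted p = 0.699).

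Of 8 pyrimidine uptake and salvage genes, 2 were higher and 0 lower, with a median of 0.41, beside 508 of 5449 genes called higher. At 1%, 5% and 20% oxygen 1, 2 and 1 were higher, beside 287, 290 and 178 of all genes. FCY2, a purine and cytosine permease gene, rose from anaerobic levels of 9.53 to 10.16 to levels of 10.36 to 11.24 on the oxygenated arrays (1.08 ± 0.19, adjusted p = 0.00328). The share of all genes that lay higher without overlap in this comparison is not given here. The FCY2 call was kept under every alternative. FUI1, for the uridine permease, differed by 0.68 ± 0.20 (adjusted p = 0.0311), and its call ended on leaving out any single anaerobic array (adjusted p up to 0.138).

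FRD1, OSM1, ERO1, ERV2 and URA1 all encode flavoproteins, and 13 genes that supply riboflavin, FMN and FAD were read beside them. RIB1 and RIB2, for early enzymes of riboflavin synthesis, were lower for the mean of the oxygen levels, by -1.13 ± 0.22 (adjusted p = 0.00481) and -1.14 ± 0.19 (adjusted p = 0.00217), while the median of the list was 0.15. RIB1 levels were 7.92 to 8.27 on the anaerobic arrays and 6.46 to 7.51 on the oxygenated ones. RIB2 was at 6.42 to 6.68 and at 4.73 to 5.71, and it was dim by its mean. Neither gene overlapped between oxygenated and anaerobic arrays, as for 11.5% of all genes in the lower direction. Both calls were kept under every alternative. Both genes were also lower at each single oxygen level. Those calls were kept at 5%, and at 1% and 20% each was lost under some alternatives, RIB1 at 20% under 10 of 20. At 1% oxygen FMN1, of the same list, was higher (0.81 ± 0.20, adjusted p = 0.0229). That call ended on leaving out any single anaerobic array or 1% oxygen array 3. It also ended with only the groups compared, and without 1% oxygen array 3 and anaerobic array 1 together (adjusted p up to 0.125 over the alternatives).

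Of 11 genes of other NADH outlets, 1 was higher and 1 was lower, with a median of 0.20. GPD1, for a glycerol 3-phosphate dehydrogenase of glycerol formation, was lower (-0.56 ± 0.14, adjusted p = 0.0154). ADH3, for the mitochondrial alcohol dehydrogenase, was higher (0.52 ± 0.13, adjusted p = 0.0144). Both calls ended on leaving out any single anaerobic array (adjusted p up to 0.0768 and 0.0757). At 20% oxygen neither GPD1 (-0.44, adjusted p = 0.143) nor ADH3 (0.56, adjusted p = 0.0525) was called. Of the 11 genes 2 were dim. GPD2 was among them, with group means from 2.24 to 2.72, and it falls outside the naming rule.

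**Figure D4:**
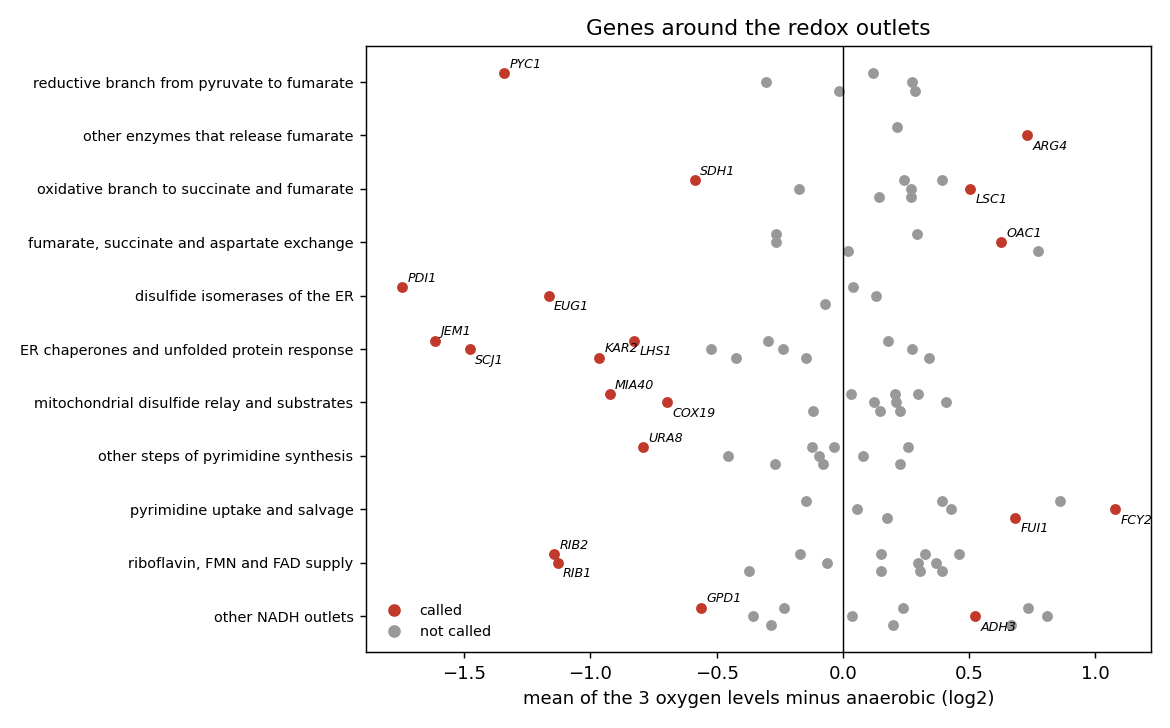
Mean of the 3 oxygen levels minus the anaerobic group (log2, x axis) for the genes of 11 pathway lists (y axis); each point is a gene, red where called at adjusted p under 0.05, and vertical offsets within a list only separate points. PDI1 at -1.75, JEM1 at -1.62 and SCJ1 at -1.48 lie lowest among the called genes, and FCY2 at 1.08 lies highest.

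The genes with the most similar profiles were found by the root mean square difference between profiles centred on their own mean over the 12 arrays, among named genes that were not dim. For FRD1 these were TOS3 at 0.24, AKL1 at 0.25 and SLC1 at 0.26 log2, small against the SD of 0.73 of FRD1 itself. TOS3 and AKL1 encode protein kinases and SLC1 an acyltransferase of phospholipid synthesis. All 3 were called lower at each oxygen level, for example TOS3 by -1.50 ± 0.30, AKL1 by -1.23 ± 0.23 and SLC1 by -1.77 ± 0.38 at 20% oxygen (adjusted p = 0.0117, 0.00862 and 0.0162). Since these genes were chosen for likeness to FRD1 on the same arrays, their calls follow largely from that choice.

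For OSM1 the nearest profiles were those of DOG2, EPL1 and RDI1 at 0.13, 0.15 and 0.17 log2, against an SD of 0.37. For ERO1 they were ERG26, TRR1 and TRX2 at 0.15, 0.20 and 0.21, against an SD of 0.29. TRR1 and TRX2 encode the cytosolic thioredoxin reductase and a thioredoxin. For ERV2 they were LOA1, PMP1 and RPB3 at 0.10, 0.11 and 0.12, against 0.24, and for URA1 they were RPL20A, WRS1 and RPL37A at 0.11, 0.12 and 0.12, against 0.23. None of these 12 genes was called against the anaerobic group, which likewise follows largely from how they were chosen.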

How the data were processed

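The deposited log2 values were made by the authors with RMA, per the submitters' processing notes. No version or parameter of RMA is stated there. The log2 unit was read from the range of the values, 0.32 to 13.7. Of 5716 probe sets, 5498 had 1 gene, 218 had no gene name, and all 5498 identifiers matched the RefSeq R64 gene table. For 47 genes with several probe sets the one with the highest mean was used. No genome build is named for the arrays and no coordinates are given.

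A limma 3.58.1 model in R 4.3.3 (empirical Bayes variances with 4.11 prior beside 8 residual degrees of freedom) had 1 mean per group over 12 arrays, and was tested on simulated data. Named genes were the 5 members, 6 pathway genes, the 3 nearest profiles of each member, and the leading called genes of every list in each comparison (at most 2 in each direction, or the smallest p where none was called). Of the genes this rule gave, URA2, AGC1, AUS1, DAN1, STE2 and STE3 are not described above. All but AGC1 were called in some comparison, such as URA2, lower at 1% oxygen (-0.86 ± 0.26, adjusted p = 0.0443). The members and lists were chosen with earlier results of these data known. Alternatives changed the scaling, the dim filter, the probe sets, the prior, the replicate block, the groups fitted and the arrays. The number of arrays limits the precision, and RMA compresses differences of weak probe sets.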

Additional observations from a re-analysis of the deposited data

How the results depend on the processing

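The differences of FRD1, OSM1, ERO1, ERV2 and URA1 from the anaerobic group kept their side of the threshold under every alternative, except that of FRD1 at 1% oxygen, which was -1.19 and became -0.93 without both arrays that stood apart, and no called difference changed sign. Leaving out single arrays, FRD1 at 1% oxygen ranged from -1.31 to -0.96 and its F statistic from 11.2 to 23.7. The count of all genes called moved more. It was 895 at 1% oxygen, 523 with the replicate block, 447 with only the groups compared, 155 without both arrays that stood apart, and 36 to 985 on leaving out single arrays, lowest without anaerobic array 2. At 5% oxygen it was 889, 1602 with only the groups compared and 400 to 1303 on leaving out arrays, and at 20% it was 431 and 153 to 758. For the mean of the oxygen levels it was 1260 and 481 to 1458, for the F test 553, 308 with the replicate block and 100 to 744, and for 5% against 1% oxygen 0 to 6. Quantile scaling raised the share of higher calls from 32.1% to 49.3% at 1% oxygen (43.1% with median scaling), from 32.6% to 44.8% at 5% and from 40.3% to 51.6% for the mean of the levels. Same-numbered arrays did not deviate together in every pair (correlations from -0.32 to 0.36), so the numbers were not taken as pairs, and the replicate block ended no call of the 5 genes (FRD1 at 1% oxygen, adjusted p = 0.0266). Among named pathway genes it ended, with others, the calls of SDH1, LSC1 and OAC1 for the mean of the levels, of EUG1 and KAR2 at 1% and of PYC1 at 20% oxygen. Without both arrays that stood apart, the calls of SDH1, LSC1, OAC1, MIA40, COX19, URA8, GPD1 and ADH3 for that mean ended. So did those of PYC1, PDI1, JEM1, SCJ1, KAR2 and FMN1 at 1% oxygen, among others. Of 78 calls of named list genes over 4 comparisons, 33 were kept under every alternative and 0 reversed. These counts include the anaerobic marker and mating genes. At 1% oxygen only the call of HEM13, an anaerobic marker, was kept under every alternative. The causes were not tested.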

Other observations

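Among the 20% oxygen arrays, array 3 had the lowest level of ERV2 (8.55), URA1 (8.14) and ERV1 (6.81), against 8.98 and 9.12, 8.64 and 8.71, and 7.63 and 7.76 on its partners. It had the highest level of OSM1 (7.37). On 1% oxygen array 3, FRD1 lay 0.46 below its group mean (-0.46) and OSM1 lay 0.46 above it.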
